A study of Mus musculus with 24 samples.

Results

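The 46 genes of the axon guidance and ephrin families described here were measured in bulk RNA-seq of the mouse embryonic archicortex (ARK), the medial edge of the telencephalon that gives rise to the hippocampus and the cortical hem. They were chosen by name, by matching the Ensembl identifiers of the table to mouse symbols: 5 class 3 semaphorins (*Sema3a*, *Sema3c*, *Sema3d*, *Sema3e*, *Sema3f*), 2 of class 5 (*Sema5a*, *Sema5b*) and 2 of class 6 (*Sema6a*, *Sema6d*), 7 plexins, 2 neuropilins, 3 Slits, 3 Robos, 1 netrin, 6 netrin receptors, 4 EphA and 4 EphB receptors, 4 ephrin-A and 3 ephrin-B ligands. All 46 of the 46 names were found among 51912 genes, and all 46 passed the limit on low values that left 16454 genes for testing.

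Guidance ligands are read by a few receptor families. Semaphorins act through plexins, and most secreted class 3 members use neuropilins as co-receptors; Slits repel through Robo receptors; netrin-1 attracts through DCC and repels through UNC5 receptors, while neogenin (*Neo1*) is related to DCC. Eph receptors are tyrosine kinases bound by ephrins on the neighbouring cell, the A class held by a lipid anchor and the B class spanning the membrane, and signals pass in both directions; in the developing forebrain these systems steer axons and migrating neurons and keep cell populations apart.

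The study deleted *Sox9*, which encodes a transcription factor of neural progenitors, and compared mutants with controls that carry the same Cre. Dissected archicortex of mixed C57BL/6J;MF1 embryos gave 24 libraries of mRNA, 4 in each of 6 groups: Sox9fl/fl;Sox1Cre mutants at E12.5 (A9 to A12) and E13.5 (A1 to A4), Sox9+/+;Sox1Cre controls at E12.5 (A13 to A16) and E13.5 (A5 to A8), and at E13.5 Sox9fl/fl;NestinCre mutants (A17 to A20) and Sox9+/+;NestinCre controls (A21 to A24). Sox1Cre acts from the early neural plate and is present in mutants and controls alike, whereas the NestinCre transgene acts later and, per the study, leaves *Sox9* in much of the cortical hem. The labels give no litter, embryo or date, so p-values measure the spread between libraries, which may in part be technical, and an age cannot be told apart from a batch that its libraries might share. Single libraries are listed below in the order of their numbers.

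Values are normalized counts, that is, reads per gene divided by 1 size factor per library. Between 16163560 and 49445219 reads per library fell on genes (median 23016925). *Sox9* itself had 2828 to 3677 normalized counts in Sox1Cre mutants at E13.5 against 5218 to 5912 in controls, 2997 to 3369 against 4586 to 5636 with NestinCre, and 1733 to 2785 against 4194 to 5265 at E12.5, with no overlap in any of the 3 comparisons. All 8 markers of the pallium were read in every library, from 2170.3 (*Emx1*) to 15922 (*Lhx2*) on average. Of 10 ventral telencephalon markers 3 were read in every library, with means from 1.26 (*Dlx6*) to 1323 (*Sp8*); their sum was highest of all 24 libraries in the NestinCre mutant A18, at 2856 against 945 to 1422 in the other 3 of its group.

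Levels were compared per kilobase (kb) of exon, where every annotated exon base of a gene was counted once. This length can exceed that of a single transcript, so ranks between genes are approximate. The highest was the plexin *Plxnb2*, with a mean of 2292 normalized counts per kb over 24 libraries, followed by the ephrin *Efnb1* (1869) and the receptor *Epha4* (1363). Below them stood *Plxna1* (713), *Efnb3* (694), *Plxnb1* (683), *Neo1* (615), *Ephb2* (577), *Efnb2* (576) and *Ephb1* (516). At the other end were *Ntn1* (27.0), *Sema3d* (7.67) and *Sema3e* (6.53). The median member stood at the 61.3rd percentile of the genes tested, and 33 of 46 members were above the median gene.

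**Figure D1:**
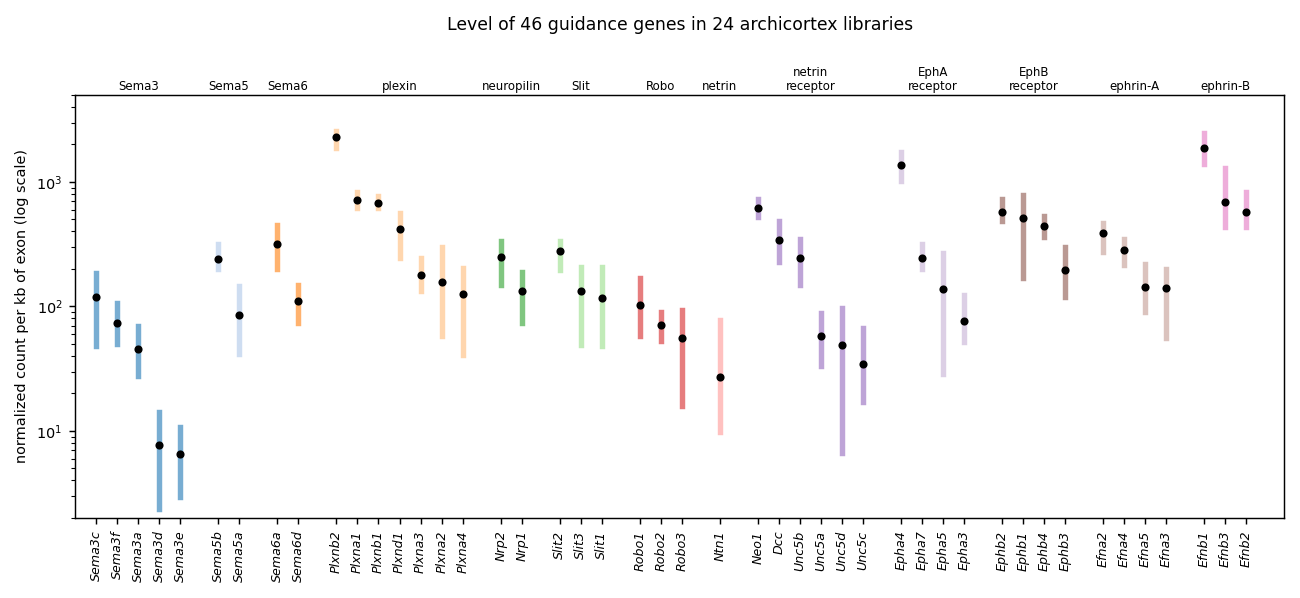
Level of each of the 46 genes by family, in normalized counts per kb of exon on a log axis. A point is the mean over 24 libraries and a bar runs from the lowest to the highest library; *Plxnb2* is the highest (2292) and *Sema3e* the lowest (6.53), and the bars are longest for genes such as *Unc5d* and *Epha5*.

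The plexin and the EphB receptor with the highest levels per kb are given by library. *Plxnb2*, a receptor for class 4 semaphorins, had 17353, 17060.4, 18214 and 18548 normalized counts in Sox1Cre controls at E12.5, 19291, 19630.2, 19435 and 18784 in mutants, 16923, 16334, 19498 and 17219.7 and 14543, 17996, 17406 and 18089.5 in controls and mutants at E13.5, and 17204, 17681, 16683 and 16897 and 17420.0, 16369.5, 17515 and 18511 in NestinCre controls and mutants. Its lowest value was that of A1. *Ephb2* had 6929.7, 7481, 7576 and 7302 and 6272, 6150.2, 7561 and 6628 at E12.5, 6974, 8135, 7386 and 7817 and 7642, 6473, 6721 and 7834 at E13.5 with Sox1Cre, and 7564, 7708, 6693 and 6894 and 7624, 6877, 9245 and 7056 with NestinCre, controls first in each pair. All groups overlapped, and A19 was the highest library.

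Among the ligands, *Slit2* was the most abundant Slit per kb (276, against 133 for *Slit3* and 116 for *Slit1*). It had 6791, 7258, 7417 and 8010.3 normalized counts in controls and 7342, 7198, 8592 and 7914 in mutants at E12.5, 7002, 6738, 8495 and 7407 and 4989.6, 7449, 7278 and 6404 at E13.5 with Sox1Cre, and 6506, 6917, 6436 and 6768 and 6274, 5963, 6489 and 7107 with NestinCre. A1 was again the lowest. *Sema6a*, a transmembrane ligand, led its class (316 per kb, *Sema6d* 111), with 2777, 2286, 3480.0 and 3219 and 3064, 3244, 3003 and 3953 at E12.5, 2409.9, 2525, 2921 and 2785 and 1769, 3254, 2608 and 2597 at E13.5 with Sox1Cre, and 2497, 2784, 2213 and 2729 and 2627, 2297, 2944 and 2662 with NestinCre. A1 was the lowest of its group here too, and the highest value was A12 at E12.5.

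A1 stood apart in the markers of several cell types. Its cortical hem marker sum (11287) was the lowest of the 24 libraries, and its neuron marker sum (49736) was exceeded by A4 alone (50509.6). Its 7 choroid plexus markers summed to 7935 normalized counts against 29710 to 89955 in the other 7 Sox1Cre libraries at E13.5, and its endothelium and pericyte markers to 5269.8 against 10439 to 13422. The NestinCre libraries A18 and A22 held values nearer to those of E12.5 for several members.

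The clearest difference among the groups was with age. From E12.5 to E13.5, 17 of 46 members passed the test in Sox1Cre controls, 12 higher and 5 lower, and 25 of 46 in Sox1Cre mutants, 16 higher and 9 lower (limma on log2(value + 1), Benjamini-Hochberg adjusted p under 0.05). That is 37.0% and 54.3% of the members, where 11.5% and 25.9% of all 16454 genes tested passed (6.33% higher and 5.17% lower in controls, 13.8% and 12.1% in mutants). The list of 46 was chosen with earlier results of these data known, so these shares are a description. These comparisons share no library, but the spread of a gene was estimated from all 6 groups together, so its SE is the same in both. Passing in both is therefore not independent evidence. In all, 16 members passed in both, 12 higher and 4 lower, none in opposite directions. These 16 were 94.1% of the members called in controls and 64% of those called in mutants; for all genes tested the 1431 called in both made up 75.6% and 33.6%. With only the libraries of each comparison, the genes called went from 1892 to 1863 in controls and from 4263 to 2133 in mutants. The members called in mutants then fell from 25 to 16. The median size of the change, without sign, was 0.35 in controls and 0.39 in mutants on the log2 scale, beside 0.15 and 0.20 over all genes tested.

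The members that rose in both were the ligands *Sema3d*, *Sema5a*, *Slit1* and *Ntn1*, the plexins *Plxna2*, *Plxna3* and *Plxna4*, both neuropilins, the netrin receptor *Unc5d*, and the Eph receptors *Epha5* and *Ephb1*. Those that fell in both were *Unc5c*, *Sema5b* and the ephrins *Efna5* and *Efnb3*. *Efna2* passed in controls alone, and *Robo1*, *Robo3*, *Efna3*, *Epha4* (higher), *Slit3*, *Unc5b*, *Plxnb1*, *Plxnb2* and *Ephb4* (lower) in mutants alone. Many of these calls were lost when 1 library was left out. With each of the 8 libraries of a comparison left out in turn, *Unc5d*, *Epha5*, *Slit1* and *Efnb3* passed in all 8 fits in both genotypes, and *Sema5b* in 8 in controls and 7 in mutants. In controls *Ntn1* and *Unc5c* passed in 7 of the 8, *Plxna4* in 6, *Sema3d* in 4, *Plxna2*, *Nrp1*, *Nrp2*, *Ephb1* and *Efna2* in 3, *Sema5a* and *Efna5* in 2 and *Plxna3* in 1. In mutants *Ephb4* passed in 6, *Plxna3* in 5, *Ntn1* and *Plxnb2* in 4 and *Efna5* and *Slit3* in 3, and the other called members besides *Sema5b* in 8. For none of the 46 did the age change itself differ between mutants and controls at an adjusted p under 0.05 (smallest 0.567, *Plxnb1*; 0% of all genes passed), and 2 members had an unadjusted p under 0.05 (1217 of 16454 genes).

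**Figure D2:**
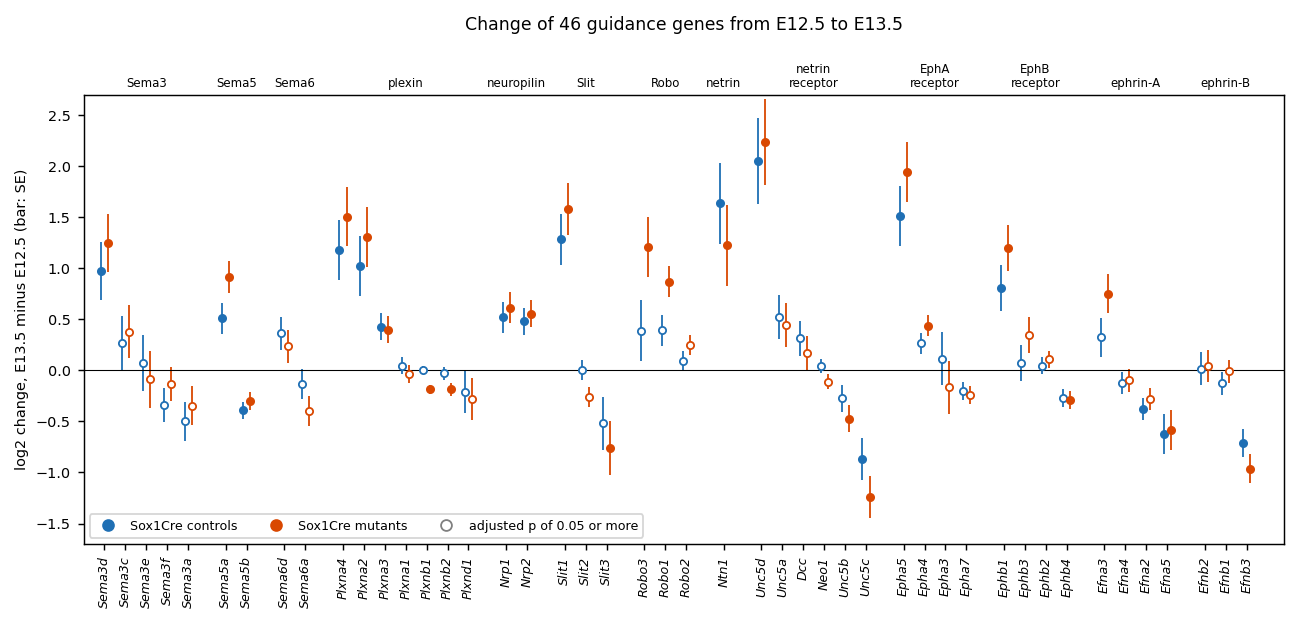
Change from E12.5 to E13.5 of each member on the log2(value + 1) scale, in Sox1Cre controls (blue) and Sox1Cre mutants (orange), with the SE as a bar; filled points passed limma's test. *Unc5d* rose most (2.05 and 2.23) and *Unc5c* fell most (-0.86 and -1.24).

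The age comparison in controls coincides with another difference. *Xist*, the transcript that marks cells with 2 X chromosomes, was at 3660 to 4451 normalized counts in all 4 control libraries at E12.5 and at 1.07 to 2.26 in all 4 at E13.5, so that the sex of the embryos and their age cannot be told apart there. With log2 *Xist* as a covariate, 0 members and 0 of all genes passed in controls. The slope for *Xist* came mostly from the other groups, so this fit does not separate age from sex in controls. In it all 17 called members kept their direction, with 58.8% to 115% of the change fitted without the covariate (median 83.5%). Their limma adjusted p ran from 0.0995 (*Sema5b*) to 0.46 (*Efna5*). The log2 change was then 1.96 for *Unc5d*, 1.46 for *Ntn1*, 1.26 for *Epha5*, 1.10 for *Slit1*, 0.58 for *Sema3d* and -0.37 for *Efna5*. In mutants, where 2 libraries of 4 were high at each age, 26 members passed with the covariate (56.5%, beside 26% of all genes), and 21 (12 higher, 9 lower; 45.7%, beside 16.8%) among the low-*Xist* libraries alone, a fit added after the data were seen. Among the high-*Xist* libraries alone 1 member passed, *Slit1* (log2 change 1.15, limma adjusted p = 0.0495), which is 2.17% of the members beside 2.3% of all genes and so no more than the background. The log2 change of *Unc5d* was 3.15 among low-*Xist* and 1.32 among high-*Xist* libraries, and that of *Unc5c* -1.68 and -0.80. At E13.5 the low-*Xist* mutants A1 and A4 also had higher sums of 9 neuron markers (49736 and 50509.6) than the high-*Xist* A2 and A3 (31186 and 34955). The part of sex in these changes was not tested apart from such differences.

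The Slit ligand *Slit1* rose. It had 322, 355, 347 and 355 normalized counts in the E12.5 controls (A13 to A16) and 666, 1238, 687 and 879 in the E13.5 controls (A5 to A8). In mutants it had 282, 309, 375 and 309.7 at E12.5 (A9 to A12) and 1175, 701, 812 and 1229 at E13.5 (A1 to A4). Every E13.5 library lay above every E12.5 library in both genotypes. On the log2 scale *Slit1* differed between the ages by 1.28 in controls (limma adjusted p = 0.00423) and by 1.58 in mutants (adjusted p = 0.000303), with an SE of 0.25. In the NestinCre line at E13.5, *Slit1* was at 904, 403, 827 and 877 in controls (A21 to A24) and 936, 526, 1020.5 and 1000.2 in mutants (A17 to A20). A22 and A18 were the lowest of their groups and of all E13.5 libraries.

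*Ntn1*, the gene of netrin-1, was among the lowest members and also rose. It had 67.1, 104, 61.4 and 77.8 normalized counts in the E12.5 controls (A13 to A16) and 108, 270.0, 252 and 445 in the E13.5 controls (A5 to A8). Mutants had 97.4, 129.5, 102 and 77.8 at E12.5 (A9 to A12) and 181, 130.1, 265 and 488 at E13.5 (A1 to A4). In controls the lowest E13.5 value (A5) barely cleared the highest E12.5 value (A14), and in mutants A2 and A10 were close in the same way. Controls had a log2 change from E12.5 to E13.5 of 1.64 (limma adjusted p = 0.0122) and mutants of 1.22 (adjusted p = 0.027), each with an SE of 0.40. NestinCre libraries had 206, 79.6, 113 and 219.6 in controls (A21 to A24) and 129.9, 117, 167 and 179.5 in mutants (A17 to A20), all below the Sox1Cre means of 269 and 266.

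The class 5 semaphorins, transmembrane ligands with thrombospondin repeats, moved in opposite directions. *Sema5b* had 1888, 1912, 1990.0 and 2242 normalized counts in the E12.5 controls (A13 to A16) and 1631, 1657, 1427 and 1408 in the E13.5 controls (A5 to A8). For mutants the values were 1821, 1668, 1955 and 2171 at E12.5 (A9 to A12) and 1614, 1513, 1445 and 1574 at E13.5 (A1 to A4). The ages did not overlap in either genotype. From E12.5 to E13.5 the log2 change of *Sema5b* was -0.39 in controls (limma adjusted p = 0.00798) and -0.30 in mutants (adjusted p = 0.0144, SE 0.087). With NestinCre it stood at 1425, 1879, 1549.8 and 1460.3 in controls (A21 to A24) and 1636, 1841, 1675 and 1604 in mutants (A17 to A20), where A22 and A18 were the highest. *Sema5a* went from 1214 ± 129.7 (SD, n = 4) to 1723 ± 67.3 (SD, n = 4) in controls and from 1105 ± 319.7 to 2049 ± 446 in mutants (SD, n = 4 each).

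Of the class 3 semaphorins, *Sema3d* rose, from 46.2 ± 14.7 to 90.4 ± 22.9 normalized counts in controls (SD, n = 4 each) and from 28.2 ± 7.77 to 69.6 ± 24.9 in mutants (SD, n = 4 each). The log2 change with age was 0.97 in controls (limma adjusted p = 0.0305) and 1.25 in mutants (adjusted p = 0.00336, SE 0.28 for both). *Sema3c*, a ligand of both neuropilins and the class 3 member with the highest level per kb, had 623, 603, 991 and 955 normalized counts in the E12.5 controls (A13 to A16) and 607, 1048, 1034 and 1140.1 in the E13.5 controls (A5 to A8). Mutant libraries had 617, 885, 670.4 and 916 at E12.5 (A9 to A12) and 895, 915, 893 and 1319 at E13.5 (A1 to A4), and those with NestinCre 1069.6, 678, 729.7 and 906 in controls (A21 to A24) and 848, 346, 701 and 886 in mutants (A17 to A20). The ages overlapped, and A18 was the lowest library of all 24. *Sema3a*, the founding repellent of the class, had log2 changes of -0.50 and -0.34 (adjusted p = 0.0968 and 0.199), and *Sema3e*, a ligand that binds plexin D1 directly, of 0.075 and -0.088.

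Among the receptors of semaphorins, 3 A-type plexins and both neuropilins rose. *Plxna4* had 1183, 951, 1029 and 866 normalized counts in the E12.5 controls (A13 to A16) and 1481, 2838, 2243 and 2813 in the E13.5 controls (A5 to A8). Its mutant values were 1035, 662, 1204 and 569.7 at E12.5 (A9 to A12) and 2859, 1773, 2130.4 and 2839 at E13.5 (A1 to A4). All E13.5 libraries exceeded all E12.5 libraries of their genotype. On the log2 scale *Plxna4* differed between the ages by 1.18 in controls (limma adjusted p = 0.0134) and by 1.51 in mutants (adjusted p = 0.00111), with an SE of 0.29. NestinCre libraries had 2757, 1099.6, 1812 and 2218 in controls (A21 to A24) and 2231, 1156, 2241 and 2467 in mutants (A17 to A20), and there A22 and A18 fell within the range of the E12.5 libraries. *Plxna2* changed by 1.03 and 1.31 and *Plxna3* by 0.43 and 0.40 on the log2 scale. *Plxna1*, the second plexin by level per kb, changed by 0.048 and -0.031 and did not pass.

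The co-receptor *Nrp2* had 2406, 2308, 2709 and 1833 normalized counts in the E12.5 controls (A13 to A16) and 2696, 3558, 3262 and 3354 in the E13.5 controls (A5 to A8). In mutants it had 2444, 1755, 2766 and 1939.9 at E12.5 (A9 to A12) and 3148, 2996, 2896 and 3949 at E13.5 (A1 to A4), and with NestinCre 3662, 2853, 3153 and 3332 in controls (A21 to A24) and 3593, 3327, 3355 and 3451 in mutants (A17 to A20). A5 fell just under A15, so the control ages overlapped, while the mutant ages did not. Controls had a log2 change from E12.5 to E13.5 of 0.48 (limma adjusted p = 0.0236) and mutants of 0.56 (adjusted p = 0.00458), each with an SE of 0.13. *Nrp1*, the obligate partner for *Sema3a*, went from 1045 ± 84.0 to 1501 ± 170.2 in controls and from 977 ± 181 to 1488 ± 229 in mutants (SD, n = 4 each). *Plxnd1*, which is known from blood vessels, changed by -0.21 and -0.28 and did not pass.

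Of the 3 Slit receptors, *Robo1* and *Robo3* passed in mutants and none in controls, and their age change did not pass a test of difference between the genotypes (limma adjusted p = 0.652 and 0.697). *Robo1* had 1367, 1512, 1406 and 1245 normalized counts in the E12.5 controls (A13 to A16) and 1396, 2155, 1618 and 2206 in the E13.5 controls (A5 to A8). Its values in mutants were 1419, 957, 1589 and 1063 at E12.5 (A9 to A12) and 2075, 2074, 2130.4 and 2787 at E13.5 (A1 to A4). Mutant ages did not overlap, while A5 lay inside the E12.5 range of the controls. From E12.5 to E13.5 the log2 change of *Robo1* was 0.39 in controls (limma adjusted p = 0.0962) and 0.87 in mutants (adjusted p = 0.000542, SE 0.15). NestinCre libraries held 1660.4, 1454, 1534 and 1835 in controls (A21 to A24) and 1797, 1945, 1848 and 1617 in mutants (A17 to A20). *Robo3*, a receptor of commissural axons that dampens the response to Slits, had log2 changes of 0.39 and 1.21 (adjusted p = 0.426 and 0.00554), and *Robo2* of 0.097 and 0.25 (adjusted p = 0.56 and 0.0591).

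Netrin receptors held both extremes. *Unc5d*, also a receptor of FLRT proteins in migrating cortical neurons, had 198, 112, 140.4 and 153 normalized counts in the E12.5 controls (A13 to A16) and 349, 762, 638 and 853 in the E13.5 controls (A5 to A8). In mutants *Unc5d* stood at 133, 174, 195 and 61.2 at E12.5 (A9 to A12) and 737, 444, 477 and 888 at E13.5 (A1 to A4). The groups were far apart, with the lowest E13.5 library of each genotype above the highest at E12.5. The log2 change with age was 2.05 in controls (limma adjusted p = 0.00496) and 2.23 in mutants (adjusted p = 0.000947, SE 0.42 for both). NestinCre libraries had 783, 216, 563 and 765 in controls (A21 to A24) and 515, 242, 696 and 649 in mutants (A17 to A20), A22 and A18 being the lowest of all E13.5 libraries.

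*Unc5c* went the other way. It had 762, 946, 1064 and 1111 normalized counts in the E12.5 controls (A13 to A16) and 563, 339, 647 and 626 in the E13.5 controls (A5 to A8). Mutant values were 899, 768, 1034 and 1291 at E12.5 (A9 to A12) and 326, 576, 453 and 344 at E13.5 (A1 to A4). No E13.5 library reached an E12.5 library of its genotype. On the log2 scale *Unc5c* differed between the ages by -0.86 in controls (limma adjusted p = 0.0115) and by -1.24 in mutants (adjusted p = 0.000395), with an SE of 0.21. With NestinCre it had 417, 589, 474 and 460.5 in controls (A21 to A24) and 485, 671, 503 and 490.3 in mutants (A17 to A20), A22 and A18 being the highest of their groups. *Unc5b*, known from endothelial cells and from neurons, had 1512, 1701, 1674 and 1612 normalized counts in the E12.5 controls (A13 to A16) and 1371, 1330.2, 1458 and 1231 in the E13.5 controls (A5 to A8). In mutants it had 1978, 1882, 1962 and 2163 at E12.5 (A9 to A12) and 925, 1780.2, 1764 and 1470.3 at E13.5 (A1 to A4), and with NestinCre 1226, 1443, 1318 and 1325 in controls (A21 to A24) and 1465, 1554, 1321 and 1404 in mutants (A17 to A20). The ages did not overlap in either genotype, and A1 was far the lowest library. Controls had a log2 change from E12.5 to E13.5 of -0.27 (limma adjusted p = 0.196) and mutants of -0.47 (adjusted p = 0.0125), each with an SE of 0.13.

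*Dcc* had log2 changes of 0.31 and 0.17, *Neo1* of 0.042 and -0.11 and *Unc5a* of 0.52 and 0.45, none past the threshold. Reads of *Unc5a* cannot be told from those of *Hk3*, which overlaps it on the opposite strand, since the strand setting of the counting is not given in the sources used here. The other 9 members with an overlapping gene had partners below 5% of their own level.

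**Figure D3:**
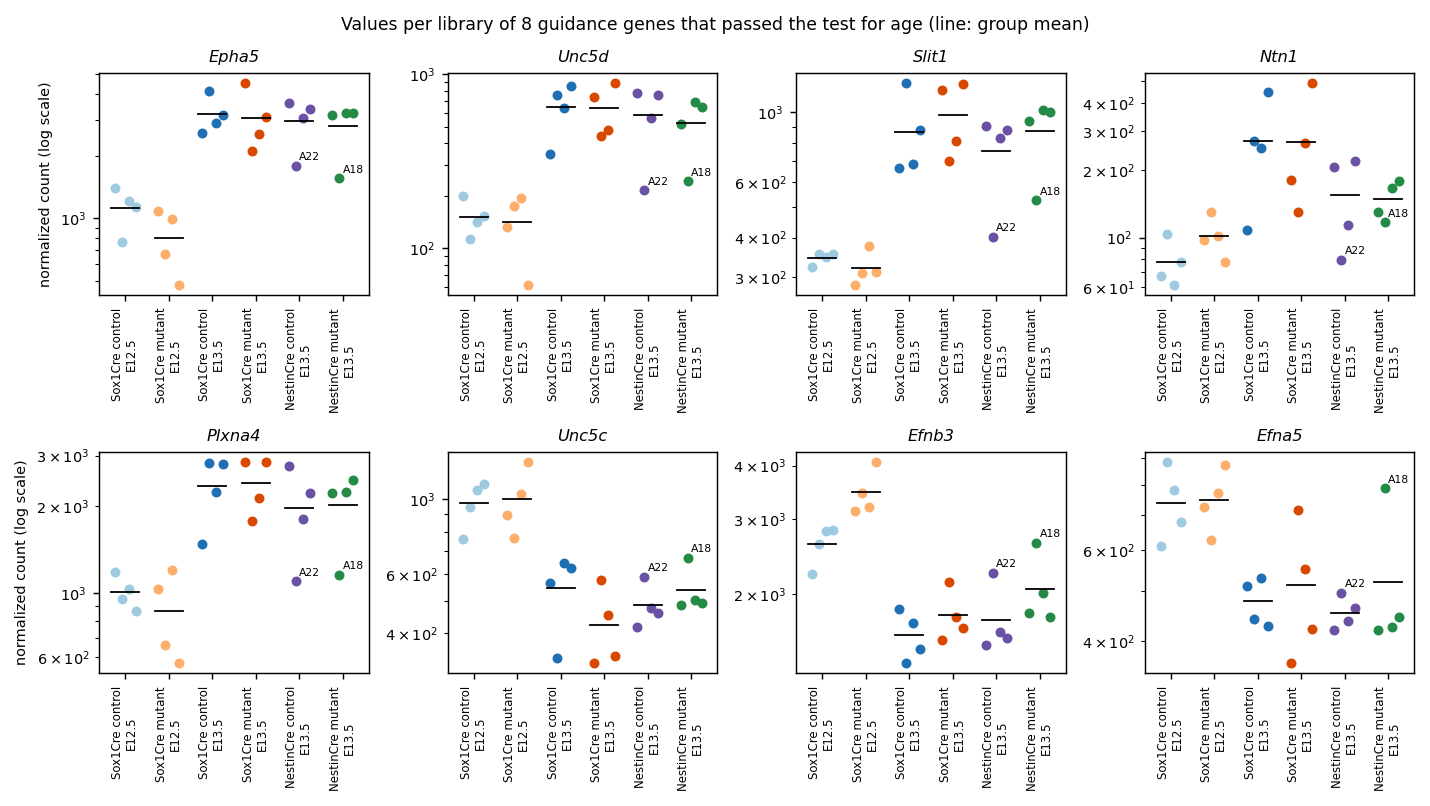
Normalized counts per library of 8 members on log axes, by group; a point is a library and a line the mean of 4. *Epha5*, *Unc5d*, *Slit1*, *Ntn1* and *Plxna4* are higher at E13.5 and *Unc5c*, *Efnb3* and *Efna5* lower, with A18 and A22 at values near E12.5 in several panels.

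In both genotypes 2 Eph receptors rose and 2 ephrins fell. *Epha5*, a receptor for A-type ephrins with a known part in hippocampal and thalamic projections, had 1398, 766, 1211 and 1131 normalized counts in the E12.5 controls (A13 to A16) and 2582, 4143, 2892 and 3163 in the E13.5 controls (A5 to A8). Its values in mutants were 1089, 670.4, 989 and 475 at E12.5 (A9 to A12) and 4492, 2116, 2566 and 3099 at E13.5 (A1 to A4). The E13.5 libraries of each genotype all lay above those of E12.5. From E12.5 to E13.5 the log2 change of *Epha5* was 1.51 in controls (limma adjusted p = 0.00401) and 1.94 in mutants (adjusted p = 0.000223, SE 0.29). NestinCre libraries had 3602, 1797, 3052 and 3361 in controls (A21 to A24) and 3147, 1565, 3215 and 3238 in mutants (A17 to A20), with A22 and A18 the lowest of all E13.5 libraries.

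*Efna5*, a ligand of *Epha5* and other A-type receptors, had 609.9, 888, 782 and 679.6 normalized counts in the E12.5 controls (A13 to A16) and 511, 442, 530.5 and 428 in the E13.5 controls (A5 to A8). In mutants it was at 726, 627, 773 and 874 at E12.5 (A9 to A12) and 362, 717, 552 and 422 at E13.5 (A1 to A4). Control ages did not overlap, while A2 reached into the E12.5 range of the mutants. The log2 change with age was -0.62 in controls (limma adjusted p = 0.0413) and -0.59 in mutants (adjusted p = 0.0298, SE 0.19 for both). With NestinCre it had 419, 495, 436 and 463 in controls (A21 to A24) and 421, 788, 426 and 445 in mutants (A17 to A20), and A18 stood at an E12.5 level.

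*Efnb3*, a transmembrane ephrin known as a midline repellent, fell most among the ligands. It had 2229.6, 2611, 2802 and 2818 normalized counts in the E12.5 controls (A13 to A16) and 1843, 1373, 1712 and 1482 in the E13.5 controls (A5 to A8). Mutants had 3124, 3447, 3200.1 and 4085 at E12.5 (A9 to A12) and 1555, 2135, 1768 and 1658 at E13.5 (A1 to A4). Neither genotype showed any overlap between the ages. On the log2 scale *Efnb3* differed between the ages by -0.71 in controls (limma adjusted p = 0.00428) and by -0.96 in mutants (adjusted p = 0.000185), with an SE of 0.14. The NestinCre libraries had 1515, 2242, 1625 and 1576 in controls (A21 to A24) and 1799.5, 2637, 2011 and 1766 in mutants (A17 to A20), A22 and A18 being the highest of their groups. *Ephb1*, a receptor for B-type ephrins, went from 2707 ± 309 to 4786 ± 903 in controls and from 2025 ± 629.7 to 4504 ± 755 in mutants (SD, n = 4 each).

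*Epha4*, which binds ephrins of both classes, had 10722, 10616, 10536 and 10825 normalized counts in the E12.5 controls (A13 to A16) and 11789, 14131, 12006 and 13580.3 in the E13.5 controls (A5 to A8). Mutant libraries were at 9531, 8140.3, 9129.8 and 8230.0 at E12.5 (A9 to A12) and 13972, 9779, 10974 and 13175 at E13.5 (A1 to A4). The ages did not overlap in either genotype. Controls had a log2 change from E12.5 to E13.5 of 0.27 (limma adjusted p = 0.0982) and mutants of 0.44 (adjusted p = 0.00405), each with an SE of 0.10. NestinCre libraries had 11304, 9151, 11016 and 10974 in controls (A21 to A24) and 10885, 9077, 11818 and 12159 in mutants (A17 to A20), A22 and A18 being the lowest of all E13.5 libraries.

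*Efna2* had 918, 967, 916 and 939.6 normalized counts in the E12.5 controls (A13 to A16) and 896, 771, 665 and 584 in the E13.5 controls (A5 to A8). In mutants it stood at 834, 945, 882 and 952 at E12.5 (A9 to A12) and 845, 636, 801 and 715 at E13.5 (A1 to A4), and with NestinCre at 835, 839, 803 and 726 in controls (A21 to A24) and 795, 999, 811 and 775 in mutants (A17 to A20). A5 came close to the lowest E12.5 control, and A1 fell inside the E12.5 range of the mutants. From E12.5 to E13.5 the log2 change of *Efna2* was -0.38 in controls (limma adjusted p = 0.0275) and -0.28 in mutants (adjusted p = 0.0638, SE 0.11). *Efnb1*, an X-linked ligand of the EphB receptors, had log2 changes of -0.13 and -0.0083, *Efnb2* of 0.018 and 0.044 and *Efna4* of -0.12 and -0.097, none past the threshold; *Efna3* rose in mutants (0.75, limma adjusted p = 0.00693) and had 0.32 in controls. Of the remaining Eph receptors, *Epha3*, *Epha7* and *Ephb3* passed in neither genotype, with changes between -0.24 and 0.35.

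The sequences just before the starts of 3 of these genes are shown because the receptor *Epha5* and its ligand *Efna5* changed in opposite directions with age, and because *Sema3d* was the member called in both genotypes whose window, clear of annotated exons, held SOX-type letters. They are the 250 bases before the start in RefSeq (GRCm38.p6), 5′ to 3′ on the strand of the gene: chr5:84417383-84417632, minus strand, for *Epha5*; chr17:62881318-62881567, minus strand, for *Efna5*; chr5:12382916-12383165, plus strand, for *Sema3d*. Capitals mark every match, on either strand, to the SOX-type letters ACAATG or ACAAAG, to the GC box GGGCGG or to the E-box CAGNTG.
Epha5: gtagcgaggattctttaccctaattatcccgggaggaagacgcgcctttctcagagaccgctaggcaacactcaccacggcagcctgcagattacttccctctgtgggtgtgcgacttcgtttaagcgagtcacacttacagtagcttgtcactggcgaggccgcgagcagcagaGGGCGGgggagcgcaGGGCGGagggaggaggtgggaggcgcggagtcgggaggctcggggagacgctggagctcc
Efna5: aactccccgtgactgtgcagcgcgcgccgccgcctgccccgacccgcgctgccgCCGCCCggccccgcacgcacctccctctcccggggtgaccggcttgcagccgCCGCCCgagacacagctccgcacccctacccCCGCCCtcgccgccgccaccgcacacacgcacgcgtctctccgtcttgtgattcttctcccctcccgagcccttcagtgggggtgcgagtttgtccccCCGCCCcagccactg
Sema3d: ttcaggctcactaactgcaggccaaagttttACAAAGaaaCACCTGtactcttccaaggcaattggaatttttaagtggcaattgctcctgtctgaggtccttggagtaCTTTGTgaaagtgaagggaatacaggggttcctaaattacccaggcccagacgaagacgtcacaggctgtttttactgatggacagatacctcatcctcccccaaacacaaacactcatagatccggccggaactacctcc

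*Epha5* held GGGCGG in 2 places and *Efna5* in 4, and neither held the SOX-type or E-box letters in this window. *Sema3d* held ACAAAG in 2 places, 219 and 141 bases before the start at their first letter, and CAGNTG in 1. Over all 32851 RefSeq windows of this length, 32.7% held GGGCGG, 44.8% CAGNTG and 25.2% at least one of the SOX-type words. Of the members 37 were in the table, with 43 windows, of which 67.4% held GGGCGG and 6 a SOX-type word; their median G+C content was 65.6%, against 52.4% for all. A match of this kind is a description of letters and does not show that a factor binds there.

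Cell markers moved with age as well. Of 9 neuron markers, 8 were higher at E13.5 in controls and 8 in mutants by the same test, and their sum went from 27946 ± 969 to 40762 ± 7841 normalized counts in controls and from 27383 ± 1178 to 41597 ± 9969.7 in mutants (SD, n = 4 each), with *Map2* the most abundant. Of 8 cortical hem markers, 4 were lower in controls and 6 in mutants, with sums of 29975 ± 6767 falling to 19415 ± 3689 and of 34165 ± 5901 falling to 18528 ± 5716 (SD, n = 4 each) and *Rspo2* the most abundant. Red blood cell markers were lower for 5 and 4 of 6, with *Hbb-y* on top. The choroid plexus sum went from 23211 ± 5629 to 46291 ± 18879 in controls and from 33668.5 ± 9721 to 59578.5 ± 35792 in mutants (SD, n = 4 each). Of its 7 markers, 0 passed in controls and 2 were higher in mutants. In mutants 5 of 8 pallium markers were higher and 3 lower. For 8 Cajal-Retzius markers these were 3 and 3, and for 9 meninges markers 2 and 4. In the same order controls had 1 and 2, 3 and 0, and 2 and 1. In bulk tissue fewer cells of a type and less RNA per cell cannot be told apart. The part of these cell types in the changes of guidance genes was not tested.

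Within E13.5 the same markers varied between libraries of 1 group, from 31186 to 50509.6 for the neuron sum in Sox1Cre mutants, and some members varied with them. Over the 16 E13.5 libraries, 138 relations were computed on log2(value + 1), of the 46 members with the sums of the neuron, cortical hem and endothelium markers; the 3 sums were chosen after the data were seen, and gene and sum share the library and its size factor. With the neuron sum 15 members had a positive and 6 a negative Pearson correlation at a Benjamini-Hochberg adjusted permutation p under 0.05, of which 14 and 4 also passed by Spearman's rho (*Efna3*, *Slit3* and *Unc5c* did not). Of all 16454 genes, 9.07% had an r at or above 0.593, the weakest among these members in size, and 6.98% one at or below -0.593. *Plxna3* had r = 0.86 and Spearman's rho = 0.85 (100000 permutations, adjusted p = 0.00241 and 0.00276, n = 16), and 0.87 without A1 and A4, the libraries farthest from the median. *Plxna4* had r = 0.81 and rho = 0.90 (permutation, adjusted p = 0.00276 and 0.00138), and 0.79 without the same libraries. *Sema3a* ran the other way, with r = -0.86 and rho = -0.81 (permutation, adjusted p = 0.00241 and 0.00938), and -0.79 without them.

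By Pearson's r, *Epha4* (0.83) and *Slit1* (0.81) came after *Plxna3* and before *Plxna4*, followed by *Plxna2* (0.80), *Unc5d* (0.79), *Ntn1* (0.77), *Dcc* (0.76) and *Epha3* (0.74), and *Ephb4* (-0.74) was the lowest after *Sema3a*. After the mean of each group was taken out, r was 0.86 for *Plxna3*, 0.79 for *Plxna4* and -0.85 for *Sema3a*. Among all 16454 genes, 2.55% had r above 0.8 with the neuron sum and 0.887% below -0.8, while 5 and 1 of the 46 members did. A22 and A18, the libraries with values near E12.5, had neuron sums of 29123 and 35703; A22 was the lowest of the 16, A18 the seventh lowest.

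**Figure D4:**
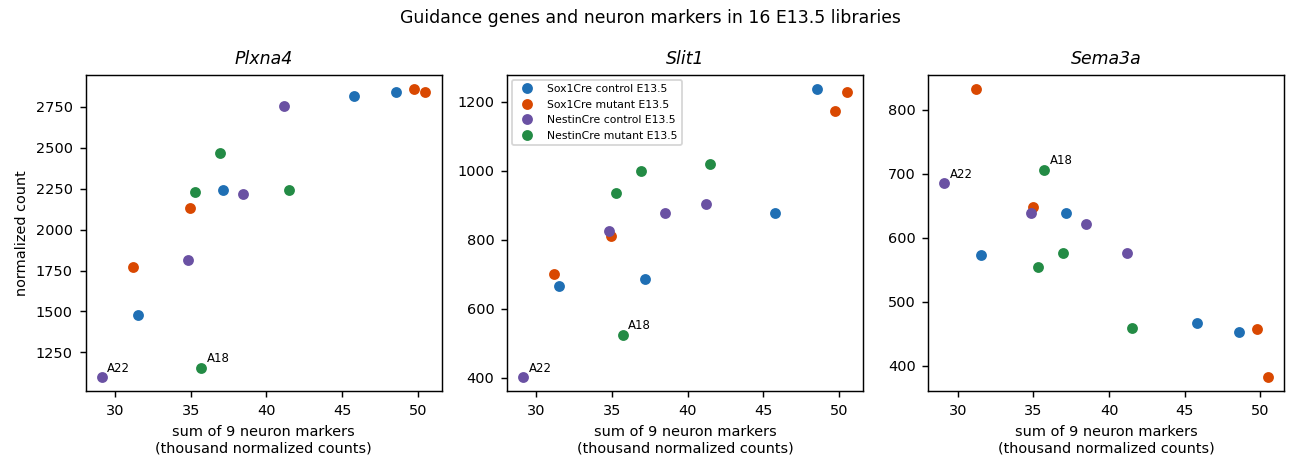
Normalized counts of *Plxna4*, *Slit1* and *Sema3a* against the sum of 9 neuron markers in the 16 E13.5 libraries, coloured by group, on linear axes. *Plxna4* and *Slit1* are higher and *Sema3a* lower in libraries with more neuron marker reads; A18 and A22, which are labelled, lie low for *Plxna4* and *Slit1*.

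With the cortical hem sum, *Slit2* had r = 0.79 and rho = 0.74 (permutation, adjusted p = 0.00315 and 0.0155, n = 16; 0.65 without A1 and A2), the highest of 8 positive relations past the threshold, followed by *Epha7* (0.74), *Sema6a* (0.73) and *Unc5c* (0.72). Of the 8, *Sema6a*, *Unc5b*, *Slit3* and *Plxnb2* did not pass by Spearman's rho (permutation, adjusted p = 0.0546, 0.123, 0.203 and 0.223). Without A1 and A2, r was 0.61 for *Epha7* and 0.62 for *Unc5c*, and fell to 0.43 for *Sema6a*, 0.37 for *Efna5* and *Plxnb2*, 0.36 for *Unc5b* and 0.25 for *Slit3*, so that the Pearson values of these 5 rested on those libraries. Of the 5, *Efna5* did pass by Spearman's rho over all 16 libraries (0.74, permutation, adjusted p = 0.0155). The 4 negative ones were *Epha3* (-0.68), *Plxna2* (-0.68), *Epha5* (-0.64) and *Efnb2* (-0.62), the last not past the threshold by Spearman's rho (permutation, adjusted p = 0.109). Without A1 and A2 they were -0.63, -0.61, -0.48 and -0.47 in the same order. Of all genes, 7.41% had a positive and 3.54% a negative r of at least 0.607 in size, that of the weakest of the 12. No member had r above 0.8 with this sum, where 0.948% of all genes did. With the endothelium sum 6 members had a positive and 1 a negative relation past the threshold, of which *Sema6d* alone also passed by Spearman's rho. Of all genes, 6.38% had a positive and 1.48% a negative r of at least 0.694 in size, that of the weakest of the 7, and 2.42% had an r above 0.8, as 2 of the 46 members did. *Plxnd1* had r = 0.84 and rho = 0.55 (permutation, adjusted p = 0.00469 and 0.109, n = 16) and its ligand *Sema3e* r = 0.83 and rho = 0.39 (permutation, adjusted p = 0.00539 and 0.297). Both rested on A1 and A19, the libraries with the fewest endothelial reads, without which r was 0.41 for each. Without them r also fell to 0.41 for *Slit3*, 0.35 for *Slit2*, 0.26 for *Unc5b* and -0.16 for *Sema5a*. For *Sema6d* it was then 0.58.

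Deletion of *Sox9* moved no member past the threshold. In Sox1Cre mutants at E13.5, 0 of 46 members passed (limma adjusted p under 0.05), where 0.924% of all genes did; at an unadjusted p under 0.05 there were 4 members and 1932 of 16454 genes. In NestinCre mutants 0 passed (0.0669% of all genes) and 2 had an unadjusted p under 0.05 (1064 genes). In Sox1Cre mutants at E12.5 also 0 passed (0.723%), with 8 at an unadjusted p under 0.05 (2217 genes). edgeR on the recovered reads called 0 members in each comparison, where it called 0.887%, 0.0304% and 0.644% of all genes in the same order. DESeq2 called 1 in Sox1Cre mutants at E13.5, *Sema3f*, which is 2.17% of the members beside 2.18% of all genes, and 0 in the other 2 (0.225% and 1.79% of all genes). The smallest adjusted p were 0.0887 (*Sema3f*), 0.426 (*Robo2*) and 0.208 (*Efnb3*). The SE of a member's change ran from 0.043 (*Plxnb1*) to 0.42 (*Unc5d*) on the log2 scale.

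The 3 comparisons use different libraries, and their medians over the 46 members were 0.019, 0.054 and -0.037 on the log2 scale, beside -0.0046, -0.0021 and 0.0020 over all genes tested. The lowest and highest changes were -0.40 (*Sema3d*) and 0.66 (*Robo3*) with Sox1Cre at E13.5, -0.35 (*Sema3c*) and 0.41 (*Robo3*) with NestinCre, and -0.68 (*Sema3d*) and 0.41 (*Sema3f*) at E12.5. The 4 members with the smallest p in each comparison are described next.

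*Sema3f*, a secreted ligand of *Nrp2* that repels hippocampal axons and neurons, was among these in all 3. In Sox1Cre controls at E13.5 it had 257, 264, 311 and 306 normalized counts and in mutants 259, 502, 539.8 and 510.0. The other 3 mutants were above every control, and A1 was among the controls. The log2 change was 0.62 (SE 0.17, limma adjusted p = 0.0887; exact permutation p = 0.114, where 0.0286 is the smallest possible). Without A1, the library low in choroid plexus and endothelium markers, it was 0.86 (adjusted p = 0.000443), and *Unc5b* also passed then (0.31, adjusted p = 0.0314). These 2 are 4.35% of the members, near the 3.1% of all genes that passed in the same fit, 510 in place of 152.

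In NestinCre controls *Sema3f* had 285, 365, 341 and 317 and in mutants 419, 435, 368 and 379.8, without overlap (log2 change 0.29, limma adjusted p = 0.872; exact permutation p = 0.0286). At E12.5 the controls had 339, 421, 337 and 343 and the mutants 444, 402, 557 and 521, where the control A14 reached above the lowest mutant (0.41, limma adjusted p = 0.282; exact permutation p = 0.0571). The change did not pass a test of difference between the Cre lines (0.32, SE 0.24, adjusted p = 0.815) or between the ages (0.20, adjusted p = 0.885).

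**Figure D5:**
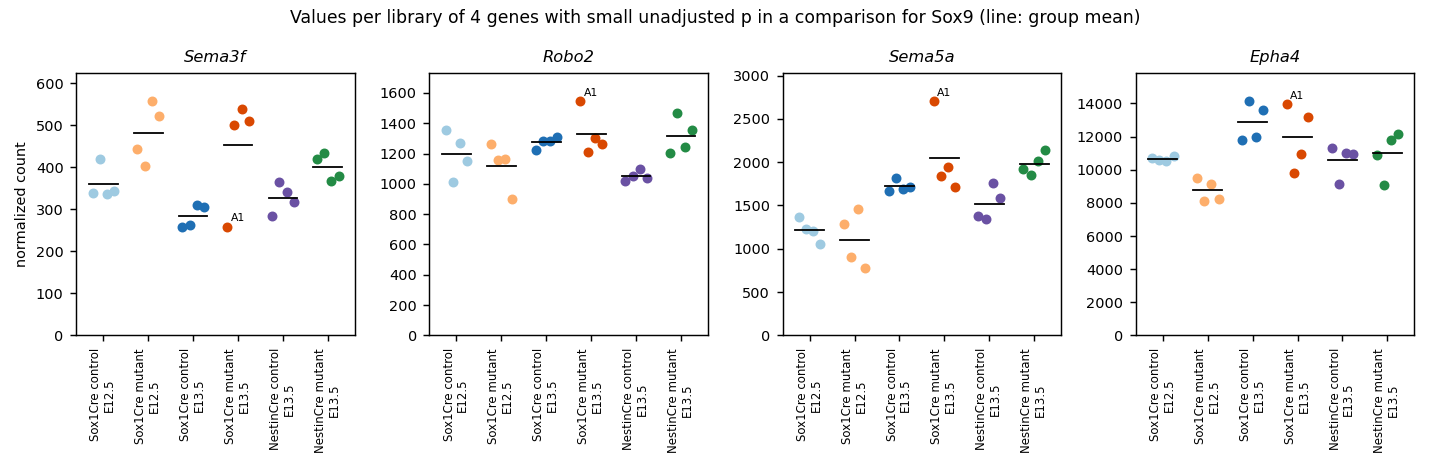
Normalized counts per library of *Sema3f*, *Robo2*, *Sema5a* and *Epha4* in the 6 groups, with a line at each mean and A1 labelled; axes start at 0. *Sema3f* has the higher mean in mutants in each pair of groups; A1, at 259, lies among its controls, and the control A14, at 421, overlaps the mutants at E12.5.

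The receptors with small p in Sox1Cre mutants at E13.5 were *Plxnb1*, *Plxna1* and *Robo3*. *Plxnb1*, a receptor for *Sema4d*, had 6579, 6653, 6887 and 6523 in controls and 6172, 6242, 6245 and 6218 in mutants, all mutants lying below all controls by a small margin (log2 change -0.099, SE 0.043, limma adjusted p = 0.366). It was the 1 of 46 members whose groups did not overlap, while 5.06% of all genes had groups without overlap. *Plxna1* had 7567, 7403, 6573 and 5683 in controls and 6371, 5626, 5753 and 5874 in mutants, which overlapped (-0.20, limma adjusted p = 0.382). *Robo3* had 461, 324, 296 and 241 in controls and 639.8, 457, 585 and 393 in mutants, and the control A5 reached above 2 mutants (0.66, limma adjusted p = 0.39).

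With NestinCre, 4 members had groups without overlap, all higher in mutants, where 4.98% of all genes had groups without overlap and 2.19% in this direction. *Robo2*, a Slit receptor, had 1022, 1050.1, 1098 and 1037 in controls and 1206, 1467, 1244 and 1356 in mutants, every mutant being the higher (log2 change 0.32, SE 0.097, limma adjusted p = 0.426). With Sox1Cre at E13.5 it had 1222, 1284, 1281 and 1312 and 1544, 1207, 1300.3 and 1262, which overlapped (0.053). *Sema5a* had 1382, 1348, 1764 and 1588 in NestinCre controls and 1921, 1853, 2009.8 and 2136 in mutants (0.39, limma adjusted p = 0.643), and with Sox1Cre at E13.5 1669, 1820.5, 1692 and 1709 and 2702, 1838, 1945 and 1711, with A1 the highest of all libraries. *Efnb1* had 6103, 6671, 6831 and 5693 in controls and 6949, 8462, 7009.7 and 6723 in mutants, which overlapped through A23 (0.20, limma adjusted p = 0.864). *Ephb3* was the fourth without overlap (0.24). Without A18 and A22, a fit added after the data were seen, again 0 members passed, and 0.0122% of all genes did.

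For *Efnb1* the other groups had 6674, 6642, 6341 and 5559 and 6387, 6809, 6741 and 5978 in controls and mutants at E12.5 and 6887, 6614, 5050.1 and 4778 and 7974, 5908, 6088 and 5971 at E13.5 with Sox1Cre, where A1 and A18 were the highest libraries. *Robo2* at E12.5 had 1353, 1015, 1272 and 1153 in controls and 1262, 1155, 1161 and 897 in mutants, and *Sema5a* 1370.2, 1224, 1211 and 1053 and 1283, 904, 1459 and 775. Both overlapped between the genotypes.

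At E12.5 5 members had groups without overlap, 4 higher and 1 lower in mutants, where 10.3% of all genes had groups without overlap (4.38% higher and 5.93% lower). *Efnb3* had 2229.6, 2611, 2802 and 2818 in controls and 3124, 3447, 3200.1 and 4085 in mutants, all mutants being higher (log2 change 0.40, limma adjusted p = 0.208). *Neo1* had 4998, 4977, 5555 and 5020.1 in controls and 5575, 5609, 5648 and 6372 in mutants, which were separated only by the gap between A15 and A9 (0.17, limma adjusted p = 0.287). *Epha4*, whose values are given above, was lower in all 4 mutants (-0.29, limma adjusted p = 0.219). At E13.5 *Neo1* had 5024, 5747, 5150.2 and 5248 and 5336, 5385, 5021 and 5773 with Sox1Cre and 5874, 4568, 4829 and 5159 and 5554, 4919.9, 5411 and 5914 with NestinCre, controls first, and both pairs overlapped. *Unc5b* and *Plxnb2* were the other members without overlap, both higher in mutants (0.30 and 0.12).

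*Plxnb1*, *Plxna1* and *Robo3* in the remaining groups were as follows. *Plxnb1* had 6464, 6355, 6911 and 6857 and 7306, 7026, 6594 and 7381 at E12.5 and 6351, 6394, 5966 and 6432 and 6059, 6198, 6792 and 6526 with NestinCre, controls first in each pair. *Plxna1* had 7359, 5804, 6838 and 6275 and 6631, 6281, 5654 and 5602 at E12.5 and 6911, 6640.3, 6743 and 6935 and 6650.2, 5668, 7056 and 6993 with NestinCre. *Robo3* had 315, 255, 193 and 230.5 and 366, 159, 369 and 108 at E12.5 and 321, 368, 494 and 441 and 478, 505, 553 and 602 with NestinCre. Each of these 3 genes overlapped between mutants and controls in both settings.

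The sex marker was uneven in these comparisons too: of 4 libraries, 0 Sox1Cre controls and 2 mutants (A2, A3) were high in *Xist* at E13.5, 4 and 2 at E12.5 (A10, A11), and 1 (A23) and 2 (A18, A20) with NestinCre. With log2 *Xist* as a covariate 0 members passed in each of the 3 comparisons, where 0.62% (Sox1Cre at E13.5), 0.535% (E12.5) and 0.0122% (NestinCre) of all genes did. For *Sema3f* with Sox1Cre at E13.5 the change was then 0.53 (limma adjusted p = 0.215), and among the low-*Xist* libraries alone 0.36 (adjusted p = 0.563), where A1 is 1 of 2 mutants.

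The Cre lines were compared at E13.5 within controls and within mutants. Among controls 0 of 46 members passed (0.243% of all genes), 3 at an unadjusted p under 0.05 (1652 genes), with *Robo2* (-0.28, limma adjusted p = 0.291), *Epha4* (-0.28) and *Dcc* (-0.43) lower with NestinCre by these values. Among mutants 0 passed (1.07%), 2 at an unadjusted p under 0.05 (2169 genes), *Sema3c* (-0.60, limma adjusted p = 0.32) and *Robo1* (-0.32). Without A18 and A22, 0 members passed in either (0.0851% and 0.401% of all genes). The effect of *Sox9* deletion did not pass a test of difference between the Cre lines for any member (smallest limma adjusted p = 0.623, *Plxnb1*; 0.0425% of all genes passed), and 0 members had an unadjusted p under 0.05 (1360 genes).

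Other genes of the pathway were counted by the same test. Of 31 further family members, 30 were in the table and 28 were tested: 6 rose with age in controls (21.4%, beside 11.5% of all genes called) and 9 in mutants (32.1%, beside 25.9%), 0 fell in either, and 0 passed in any comparison for *Sox9* deletion or Cre line. The genes named next for age were picked after their values were seen. *Draxin*, a secreted ligand that binds DCC, went from 3534 ± 955 to 7444 ± 1315 normalized counts in mutants (SD, n = 4 each, log2 change 1.10, limma adjusted p = 0.00181) and did not pass in controls. *Sema7a*, a lipid-anchored semaphorin, rose by 0.80 in controls and 1.13 in mutants. Of 58 genes of intracellular guidance signalling, all tested, 6 rose and 2 fell in controls (13.8% called, near the 11.5% of all genes) and 20 rose and 7 fell in mutants (46.6%, beside 25.9%). *Tiam2*, an activator of Rac, rose most, by 2.82 and 3.41 on the log2 scale, and *Dpysl3*, a cytosolic mediator of semaphorin signals, by 1.21 and 1.64. In the comparisons for *Sox9* deletion 1 of the 58 passed, *Limk2*, a kinase that acts on cofilin, with Sox1Cre at E13.5. That is 1.72% of the list, near the 0.924% of all genes called there. *Limk2* had 939.7 ± 62.4 normalized counts in these mutants and 778 ± 48.2 in controls (SD, n = 4 each, log2 change 0.27, SE 0.053, limma adjusted p = 0.0113).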

How the data were processed

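Bulk RNA-seq of 24 archicortex libraries was analysed from 1 table of 51912 genes. Per the labels and the study's methods, the authors trimmed reads with Trimmomatic 0.36, aligned them to GRCm38 (Ensembl 89) with STAR 2.5.2a, counted genes with RSEM 1.2.31 and divided the counts by DESeq2 size factors; the deposited signal is that normalized count. The strand setting of the counting is not given in the sources used here. Dividing by the size of 1 read gave whole reads in every library (tolerance 0.01 read), so depth was recovered: 16163560 to 49445219 reads per library. Size factors fix the scale, so a shift of total RNA per cell is not measured, and genes with few reads carry more counting error. Symbols and exon lengths came from GENCODE M21, which named 51719 identifiers.

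The 16454 genes that reached a value of 10 in 4 or more libraries entered limma 3.58.1 (R 4.3.3) on log2(value + 1), with 6 group means, a mean-variance trend, 18 residual degrees of freedom and Benjamini-Hochberg adjustment over all genes at 0.05. Fold changes are on that scale, which understates those of low genes. Single values were also tested by exact permutation over all 70 assignments of 4 against 4 (two-sided, smallest p 0.0286), and correlations by 100000 permutations (scipy 1.17.1). edgeR 4.0.16 and DESeq2 1.42.0 on the recovered reads, other pseudocounts (0.5, 5), filters, array weights, an *Xist* covariate, the libraries of each comparison alone and leaving out each library were tried as alternatives. The fitting was tested on simulated data.

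Values in every library are printed for the 4 members with the smallest p in each comparison for *Sox9* deletion, for up to 4 called members with the largest rise and 4 with the largest fall without overlap in each comparison for age or Cre line (mean of at least 100), and for the member of each family highest per kb. The members and lists were chosen with earlier results of these data known.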

Additional observations from a re-analysis of the deposited data

Results flagged for a closer look

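In 16 of 162 groups of 4 libraries, over the 27 genes given by library, 1 library stood far from the other 3 by Dixon's test; chance alone flags about 5% of groups.

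A18, a NestinCre mutant, was set apart for 5 genes that change with age and for *Efnb1*. It had 671 normalized counts of *Unc5c* (others 485 to 503), 788 of *Efna5* (421 to 445), 1565 of *Epha5* (3147 to 3238), 526 of *Slit1* (936 to 1020.5), 999 of *Efna2* (775 to 811) and 8462 of *Efnb1* (6723 to 7009.7). The NestinCre control A22 had 2242 of *Efnb3* (1515 to 1625), 9151 of *Epha4* (10974 to 11304) and 403 of *Slit1* (827 to 904). Some other genes that changed with age did not set them apart: A18 had 3327 of *Nrp2* and 1853 of *Sema5a*, where the Sox1Cre control means at E13.5 were 3217 and 1723, and A22 had 495 of *Efna5*, where that mean was 478.

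A1, a Sox1Cre mutant at E13.5, had 259 of *Sema3f* (502 to 540) and 7974 of *Efnb1* (5908 to 6088). A4, of the same group, had 1319 of *Sema3c* (893 to 915) and 2787 of *Robo1* (2074 to 2130.4). At E12.5 the control A14 had 421 of *Sema3f* (337 to 343), the control A15 had 5555 of *Neo1* (4977 to 5020.1), and the mutant A12 had 6372 of *Neo1* (5575 to 5648).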

How the results depend on the processing

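No member changed direction in any of 1040 values over 54 single-member results: 893 kept their side of the threshold, 144 no longer passed and 3 newly passed. For *Sox9* deletion with Sox1Cre at E13.5, 0 members became 2 with array weights, 1 with DESeq2 and 0 to 2 with 1 library left out (2 without A1). At E12.5 array weights gave 1, and for the Cre line in mutants 3. For age in controls, 17 became 0 with the *Xist* covariate and 6 to 20 with 1 library left out (8 without A6, 9 without A7, 6 without A8, 8 without A14, 11 without A15, 9 without A16). With the covariate all 17 kept their direction at 58.8% to 115% of the change, but that fit does not separate age from sex in controls. For age in mutants, 25 became 16 with only the libraries of the comparison, 1 among high-*Xist* libraries and 20 to 30 with 1 library left out. The cause of these shifts was not tested. Fits that leave libraries out also rest on fewer libraries.

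Counts over all genes moved more. The 152 of *Sox9* deletion with Sox1Cre at E13.5 became 44 with only its libraries, 962 with array weights, 358 with DESeq2, 43 among low-*Xist* libraries and 90 to 510 with 1 library left out (510 without A1, 90 without A3, 101 without A4, 95 without A6). The 11 with NestinCre became 2 with the *Xist* covariate, among low-*Xist* libraries and without A18 and A22, 5 with edgeR, with no filter and with a mean of at least 100, 17 with array weights, 37 with DESeq2, and 2 to 7 with 1 library left out, fewer than 11 whichever of the 8 it was. The 119 at E12.5 became 76, 577, 294 and 37 with only its libraries, array weights, DESeq2 and high-*Xist* libraries, and 50 to 139 with 1 left out (75 without A12, 50 without A13, 68 without A14, 74 without A16). Age in controls (1892) became 3244 with array weights, 0 with the covariate and 794 to 2629 with 1 left out (794 without A6, 872 without A8, 1153 without A14, 1200 without A15, 1158 without A16), and age in mutants (4263) became 2133 with only its libraries, 2760 among low-*Xist* and 378 among high-*Xist* libraries, and 2948 to 4725 with 1 left out. The percentages of all genes given beside the members' counts rest on these totals and move with them. Cre line in controls (40) became 108 with array weights, 157 with DESeq2, 22 with a mean of at least 100, 21 among low-*Xist* libraries, 14 without A18 and A22 and 11 to 31 with 1 left out (20 or fewer without each of A6, A7, A8, A21, A22 and A23). In mutants 176 became 52, 1728 and 354 with only its libraries, array weights and DESeq2, 12 and 74 among low- and high-*Xist* libraries, 66 without A18 and A22, and 71 to 605 with 1 left out (605 without A1, and under 100 without each of A2, A3, A4, A17, A18 and A20). The test of difference between Cre lines (7) gave 13, 369 and 95 in the same order and 5 to 144 with 1 left out (144 without A1, 13 without A17), and that between ages (0) gave 20 with DESeq2 and 0 or 1 with 1 left out (1 without A10 or A12).

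No paired analysis was possible because the labels give the groups no shared replicate numbers. With 4 libraries a group, small changes in members with a large SE could not be detected, and the labels give no litter or dissection day, so their part was not tested.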
